A study of Mus musculus with 20 samples.

Results

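The 10 genes described here encode pluripotency factors, the proteins that keep embryonic cells able to form every tissue of the body: Pou5f1, Sox2, Nanog, Sall4, Klf4, Klf5, Klf17, Esrrb, Dppa5a and Lin28a. They were picked by name, 10 of 23309 gene symbols or 0.0429%, and their expression was read in 20 RNA-seq libraries of mouse oocytes and early embryos. Expression is given as FPKM, the number of sequenced fragments scaled by transcript length and by the size of the library. All animals were of the ICR strain. The Btg4 experiment followed Btg4-/- and wild-type material through 4 stages. These are the immature oocyte with its germinal vesicle (GV), the mature egg arrested in metaphase II (MII), the fertilised egg or zygote, and the embryo after its first cleavage (2-cell). Its 16 libraries form 8 groups of 2. The Erk experiment has 4 libraries, 1 each of GV and MII oocytes labelled Erk-/- or wild type. A sample held 60 pooled oocytes or embryos, from females aged 21 to 23 days that had received PMSG and hCG to induce ovulation and had been mated where embryos were needed. The genotype of the males, the structure of the Btg4 allele, the Erk gene or genes deleted and any Cre driver are not stated in the labels. Whether the libraries of a group stem from different females is likewise not stated, and the p-values therefore cover only the spread between these libraries, which may be technical.

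An oocyte stops transcription when it is fully grown and lives on stored maternal mRNA until the embryo switches on its own genome, which in the mouse happens mainly at the 2-cell stage. Stored mRNAs are silenced, translated or degraded largely through their poly(A) tails, and BTG4 is known as an adaptor that brings the CCR4-NOT deadenylase to mRNAs during oocyte maturation. Pou5f1 (Oct4), Sox2 and Nanog are the core transcription factors of pluripotent cells. Sall4 is a zinc finger factor that works with them, Klf4, Klf5 and Klf17 are zinc finger factors of the Krüppel-like family, and Esrrb is an orphan nuclear receptor. Dppa5a and Lin28a encode RNA-binding proteins, and Lin28a blocks the maturation of let-7 microRNAs. Some of these mRNAs are maternal, made during oocyte growth, and others are products of the embryo.

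The depth of the libraries, estimated from the deposited intervals, ran from 3100000 to 5830000 fragments for Btg4 libraries and from 6830000 to 9350000 for Erk libraries. Paired libraries of one group correlated across genes on the log2 scale with r of 0.942 to 0.98. All 10 oocyte markers examined (among them Zp3, Gdf9 and Bmp15) were at 1 FPKM or more in every group except the wild-type 2-cell group, where 9 were and Figla was listed at 0. Btg4 mRNA was lower in the libraries labelled Btg4-/- than in wild type at MII (172 and 191 against 415 and 406 FPKM) and at the zygote stage. It was not lower at GV (1980 and 1881 against 1450 and 1673 FPKM) and was higher at the 2-cell stage (3514 and 3632 against 1147 and 964 FPKM). Gene-level values do not show whether the deleted part is transcribed, so these libraries are called by their label throughout. The 2 GV libraries of the Erk experiment stood apart from the GV libraries of the Btg4 experiment. Across 12311 genes they correlated best with the zygote groups of the Btg4 experiment (mean r 0.765 to 0.773) and less with its GV groups (0.653 to 0.688). The MII library labelled Erk-/- correlated alike with the wild-type zygote and MII groups (0.773 and 0.772). Zp3 in the Erk GV libraries, 3811 and 4768 FPKM, compares with 152 and 155 FPKM in the wild-type GV libraries of the Btg4 experiment. In the zygotes of that experiment Zp3 was at 80.1 and 71.9 FPKM in wild-type and 792 and 644 FPKM in labelled Btg4-/- libraries. In Zp3 the Erk GV libraries were thus above all of these. Values of the 2 experiments are therefore set side by side and not combined.

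Because maternal mRNA is handled through its tail, the 3' ends of the members with the clearest courses are shown first. Each line is the 30 bases of the 3' UTR that end with the polyadenylation signal nearest the end of the GENCODE M21 transcript (GRCm38), with the signal AATAAA or ATTAAA in capitals. In Klf4 the capitals also cover the overlapping letters TTTTAA, one of the forms of the cytoplasmic polyadenylation element through which stored mRNAs regain a tail.
Pou5f1: ctgtcactcatcattttgttcttaAATAAA
Sall4: cctgctgatactgtaaggtctgaaAATAAA
Klf4: actcaaggtgagaaataagTTTTAAATAAA
Klf17: aaagaaccctgtgggggctcaaagATTAAA
Dppa5a: taaataaaaaataaaattgaagtgATTAAA
Lin28a: tccttcccttctcttccctgggaaAATAAA
Over the last 150 bases, all 10 members hold a polyadenylation signal, as do 80.2% of 18740 genes. The element TTTTAT or TTTTAA occurs in that window in 3 of the 10, Klf4 (2 copies), Esrrb (1) and Lin28a (1), and in 35% of the 18740 genes. Klf4 and Lin28a hold the form TTTTAT, which 18.4% of genes have. In Klf4 the element starts 5 bases before the signal, in Lin28a 105 bases and in Esrrb 120 bases before it. The annotated 3' UTR is 184 bases long in Dppa5a, 221 in Pou5f1, 982 in Klf4 and 2775 in Lin28a. A match is a description of the letters and not evidence of a working element.

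Levels are given on the FPKM scale, which is corrected for length and so allows genes to be compared. In the wild type of the Btg4 experiment, Dppa5a at GV (2187 and 2036 FPKM), Pou5f1 at the 2-cell stage (589 and 563 FPKM) and Klf17 in the zygote (424 and 462 FPKM) were the most abundant members. Sall4, Lin28a and Esrrb lay between 3.78 and 56.7 FPKM in every wild-type library of the Btg4 experiment. Klf4 was below 2 FPKM at GV and at 12.8 and 14.6 FPKM at the 2-cell stage. Sox2 and Nanog never passed 3 FPKM in the Btg4 experiment, and Klf5 was above 1 FPKM in the wild-type 2-cell libraries alone. The abundant members are thus represented by many fragments and the scarce ones by few: the deposited intervals correspond to 748 to 2660 fragments for Pou5f1 and to at most 11.8 for Nanog. All 10 members passed the expression filter (a group mean of 1 FPKM or more somewhere among the 8 groups), but Klf5 did so through the wild-type 2-cell group only, Nanog through both 2-cell groups, Sox2 through 3 groups and Klf4 through 4.

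**Figure D1:**
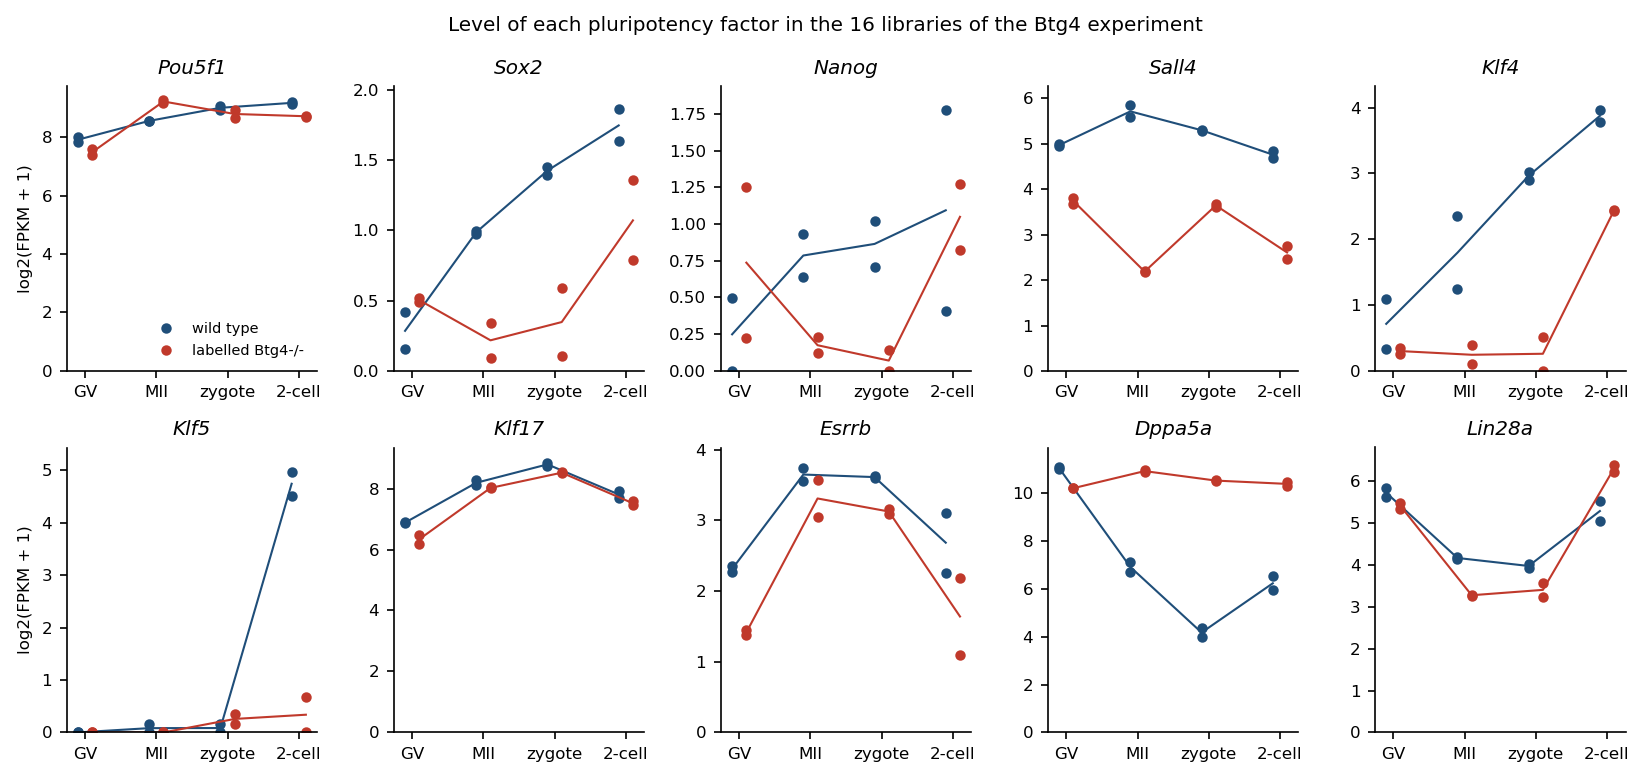
Level of each gene as log2(FPKM + 1) (vertical axis, scale differs by panel) at 4 stages (horizontal axis) in the Btg4 experiment; each point is a library, blue for wild type and red for libraries labelled Btg4-/-, and lines join the means of 2 libraries. Dppa5a falls in wild type from 2187 and 2036 FPKM at GV to 14.8 and 19.6 FPKM in the zygote while the red points stay at or above 1172 FPKM, and Klf5 is high only in the wild-type 2-cell libraries.

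Changes were tested on log2(FPKM + 1) with limma over 12311 genes, with p-values adjusted over all of them (Benjamini-Hochberg) and called at an adjusted p under 0.05. At GV, 0 members were higher in the libraries labelled Btg4-/- and 4 were lower (Pou5f1, Sall4, Klf17 and Dppa5a), 4 of 10 beside 7.9% of all genes tested (1.45% higher and 6.46% lower). At MII, 2 were higher (Pou5f1 and Dppa5a) and 4 lower (Sox2, Sall4, Klf4 and Lin28a), beside 52.4% of all genes (29.1% higher, 23.3% lower). At the zygote stage, 1 was higher (Dppa5a) and 4 lower (Sox2, Sall4, Klf4 and Lin28a), beside 47.7% (24.4% higher, 23.3% lower). At the 2-cell stage, 2 were higher (Dppa5a and Lin28a) and 6 lower (Pou5f1, Sox2, Sall4, Klf4, Klf5 and Esrrb), beside 49.0% (22.6% higher, 26.4% lower). At MII and in the zygote about the same share of members as of all genes was called, and at the 2-cell stage 8 of 10 were. With 10 members chosen by name, these counts do not set them apart. The median change of the 10 was -0.42 at GV, -0.47 at MII, -0.53 in the zygote and -0.57 at the 2-cell stage, beside medians of -0.12, 0.09, 0.01 and -0.05 over all genes. Sall4 was called lower at all 4 stages, and Nanog was called in no contrast of the main analysis. At GV, 178 genes were called higher and 795 lower, a share of 18.3% higher that became 54.0% (441 and 376 genes) when libraries were scaled by the median of ratios, and the median of all genes moved from -0.12 to 0. Of the 4 members called at GV, that scaling left 1, Sall4. Limma fitted to the GV libraries alone called 0 of the 10 members and 0 of all genes, with 5 members and 2956 genes at an unadjusted p under 0.05. The GV count was 1 without replicate 2 of the labelled Btg4-/- GV group, and also without either wild-type GV library.

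**Figure D2:**
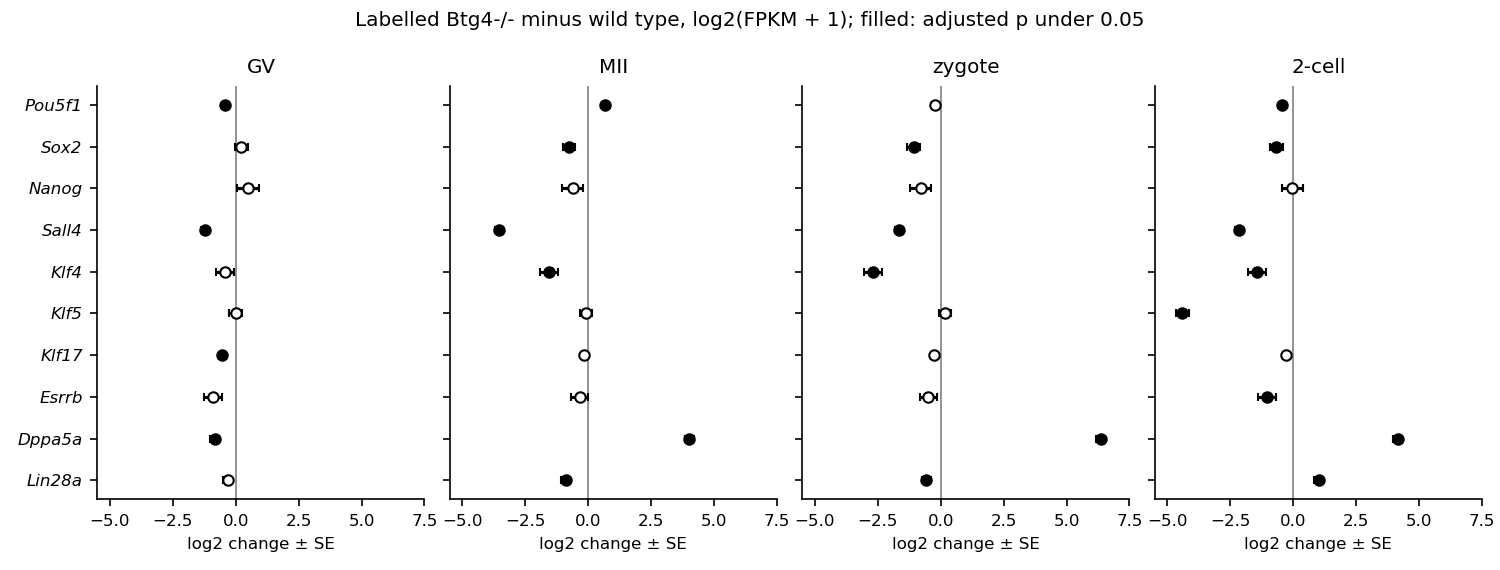
Change between libraries labelled Btg4-/- and wild type at each stage (horizontal axis, difference of log2(FPKM + 1), positive when higher in labelled Btg4-/-) for the 10 genes; points are limma estimates from 2 libraries per group, bars are ± 1 SE and filled points have an adjusted p under 0.05. Dppa5a stands at 4.01, 6.35 and 4.15 at MII, zygote and 2-cell, Sall4 is below 0 at all 4 stages, and Klf5 is at -4.41 at the 2-cell stage.

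Within wild type, 6 members rose from GV to MII (Pou5f1, Sox2, Sall4, Klf4, Klf17 and Esrrb) and 2 fell (Dppa5a and Lin28a), beside 53.7% of genes called (25.2% higher, 28.5% lower). From MII to zygote 3 rose (Pou5f1, Klf4 and Klf17) and 1 fell (Dppa5a), beside 28.5% (20.5% higher, 8.0% lower). From zygote to 2-cell 4 rose (Klf4, Klf5, Dppa5a and Lin28a) and 3 fell (Sall4, Klf17 and Esrrb), beside 57.4% (27.1% higher, 30.2% lower). In the labelled Btg4-/- libraries, 4 members rose and 2 fell from GV to MII, beside 45.4% of genes called (27.3% higher, 18.1% lower). From MII to zygote 2 rose and 1 fell, beside 15.7% (10.3% higher, 5.38% lower), and from zygote to 2-cell 3 rose and 3 fell, beside 46.5% (18.3% higher, 28.2% lower). The difference between genotypes in a step was called for 4 members from GV to MII, 2 in each direction, beside 42.5% of genes (26.5% higher, 16% lower). From MII to zygote it was called for 3 members, 2 higher and 1 lower, beside 12.2% (4.95% and 7.25%), and from zygote to 2-cell for 3, 1 higher and 2 lower, beside 48.0% (22.2% and 25.9%). Some calls in these steps rested on single libraries. In wild type from GV to MII, Sox2 ended without GV replicate 2 (adjusted p = 0.1636) or either MII library (0.08193 and 0.09545), and Klf4 without GV replicate 2 (0.1979) or MII replicate 1 (0.2462). Between MII and zygote, Pou5f1 ended without MII replicate 1 (0.05446) or zygote replicate 1 (0.0816), and Klf4 without MII replicate 2 (0.2551) or either zygote library (0.1138 and 0.09163). From zygote to 2-cell, Sall4 ended without zygote replicate 1 (0.05312), and Esrrb without either zygote library (0.1138 and 0.1063) or 2-cell replicate 1 (0.3047). With the Btg4-/- label, Klf17 from MII to zygote ended without any one of the 4 libraries compared (0.06652 to 0.09055), and Pou5f1 without either MII library (0.1548 and 0.06514) or zygote replicate 2 (0.2176). Sox2 from zygote to 2-cell ended there without zygote replicate 2 (0.2316) or 2-cell replicate 2 (0.2093).

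Summed FPKM of 13 granulosa and cumulus cell markers, cells that surround the oocyte, was 64.9 to 72.6 in wild-type and 76.7 to 82.6 in labelled Btg4-/- GV libraries and 1.08 to 11.03 in later stages; 5 or 6 of the 13 reached 1 FPKM at GV, and Ptx3 and Tnfaip6 were listed at 0 in all GV libraries of the experiment. Summed FPKM of 5 blood cell markers was 50.3 to 85.0 in the wild-type MII libraries and at most 10.9 elsewhere, with Hba-a1 the highest. The part of these cells in the changes of the members was not tested. In pooled samples, fewer transcribing cells and less mRNA per cell cannot be told apart.

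Pou5f1 (chr17:35642977-35647722, mm9 as in the files, like the positions below) was abundant throughout the Btg4 experiment. It spanned 3.33 times between its highest and lowest group mean there. Its wild-type level was 256 and 224 FPKM at GV, 373 and 377 at MII, 539 and 487 in the zygote, and 589 and 563 at the 2-cell stage. In the labelled Btg4-/- libraries it was 191 and 166, 620 and 571, 481 and 406, and 425 and 413 FPKM at the same stages. The highest group mean was that of the labelled Btg4-/- MII libraries, and the genotypes did not overlap at any stage. In wild type the steps from GV to MII (0.64 ± 0.12, adjusted p = 0.0004058) and from MII to zygote (0.45 ± 0.12, adjusted p = 0.01191, and 0.3578 with median-of-ratios scaling) were called, and the step to the 2-cell stage was not (0.17 ± 0.12, adjusted p = 0.2321). The change between genotypes at MII was 0.66 ± 0.12 (log2 ± SE, limma adjusted p = 0.0003193), or 1.59 times the wild-type mean. This call depended on the scaling: it turned to -0.11 (adjusted p = 0.3368) after a correction for transcript length and was lost with quantile normalization (adjusted p = 0.3708). At the 2-cell stage the change was -0.46 ± 0.12 (adjusted p = 0.005286), which held in every alternative examined. At GV it was -0.43 ± 0.12 (adjusted p = 0.04091), and the call ended in 13 of 26 alternatives, for example with median-of-ratios scaling (adjusted p = 0.421). The step from GV to MII was larger with the Btg4-/- label by 1.09 ± 0.16 (adjusted p = 0.0001597), a difference that the length correction ended (adjusted p = 0.2049). The step from MII to zygote was smaller by 0.88 ± 0.16 (adjusted p = 0.004488). Pou5f1 has processed pseudogenes, and reads shared with them could shift its values in all libraries.

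Sox2 (chr3:34548927-34551382) was scarce, with at most 29.2 fragments behind each value of the Btg4 experiment. Wild-type libraries held 0.34 and 0.11 FPKM at GV, 0.968 and 0.996 at MII, 1.74 and 1.63 in the zygote, and 2.10 and 2.63 at the 2-cell stage. Those labelled Btg4-/- held 0.43 and 0.40, 0.07 and 0.27, 0.50 and 0.08, and 0.73 and 1.56 FPKM. From MII on, both labelled Btg4-/- libraries lay below both wild-type libraries. In wild type the step from GV to MII was called (0.70 ± 0.25, adjusted p = 0.03101), while those from MII to zygote (0.44 ± 0.25, adjusted p = 0.2227) and from zygote to 2-cell (0.32 ± 0.25, adjusted p = 0.295) were not. The change between genotypes was -0.77 ± 0.25 at MII (adjusted p = 0.02064), -1.08 ± 0.25 in the zygote (adjusted p = 0.003252) and -0.68 ± 0.25 at the 2-cell stage (adjusted p = 0.04021). The zygote call held in all alternatives. The MII call ended without replicate 1 of labelled Btg4-/- MII (adjusted p = 0.1188) and without either wild-type MII library (0.06123 and 0.07144). The 2-cell call ended in 7 alternatives, up to an adjusted p of 0.3021 with quantile normalization; among them were the fits without labelled Btg4-/- 2-cell replicate 1 (0.256), wild-type 2-cell replicate 2 (0.1221) and either wild-type zygote library (0.05117 and 0.0512). The gene overlaps the locus of Sox2ot, a long noncoding RNA, and since no source gives the strand of the libraries, reads of the pair cannot be told apart.

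Nanog (chr6:122657586-122663796), the factor whose onset marks the inner cell mass later in development, stayed at or near the detection limit. It was listed at 0 in 1 wild-type GV library, and the highest value of the Btg4 experiment was 2.43 FPKM in a wild-type 2-cell library, whose partner held 0.33 FPKM. In the zygote, wild-type libraries held 1.03 and 0.63 FPKM and those labelled Btg4-/- 0.10 and 0 FPKM, with a change of -0.79 ± 0.42 (adjusted p = 0.1413). No difference between genotypes passed the threshold at this depth. Fitting only the groups compared gave adjusted p of 0.02681 in the zygote and 0.04023 at MII, and the other alternatives gave no call between genotypes. Nanog, too, has processed pseudogenes.

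Sall4 (chr2:168573832-168592701), needed for the inner cell mass and for germ cells, was the member called lower with the Btg4-/- label at every stage. Wild-type libraries held 30.8 and 29.96 FPKM at GV, 46.9 and 56.7 at MII, 38.7 and 38.1 in the zygote, and 24.9 and 27.5 at the 2-cell stage. Libraries labelled Btg4-/- held 13.0 and 11.8, 3.60 and 3.51, 11.2 and 11.8, and 4.54 and 5.71 FPKM. All 8 wild-type libraries were above all 8 labelled Btg4-/- libraries, and the order of the 8 group means had no overlap between neighbours. The change was -1.23 ± 0.16 at GV (adjusted p = 0.001093), -3.53 ± 0.16 at MII (adjusted p = 3.584e-09), -1.66 ± 0.16 in the zygote (adjusted p = 2.947e-06) and -2.15 ± 0.16 at the 2-cell stage (adjusted p = 2.75e-07). In means, wild type was 2.46 times higher at GV and 14.6 times higher at MII. The calls from MII on held in all 26 alternatives; the one at GV ended only when the GV libraries were fitted alone (adjusted p = 0.08895). In wild type Sall4 rose from GV to MII by 0.74 ± 0.16 (adjusted p = 0.00158). With the Btg4-/- label it fell by 1.55 ± 0.16 (adjusted p = 4.237e-06), and the difference between these steps was -2.30 ± 0.23 (adjusted p = 5.393e-06). From MII to zygote it rose with the label by 1.46 ± 0.16 (adjusted p = 0.0001537), against -0.42 ± 0.16 in wild type (adjusted p = 0.07061), a difference of 1.87 ± 0.23 (adjusted p = 0.0002708).

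The 3 Krüppel-like factors differed from one another in level and course. Klf4 (chr4:55540009-55545347) held 1.13 and 0.27 FPKM in the wild-type GV libraries, 4.09 and 1.37 at MII, 7.15 and 6.47 in the zygote, and 12.8 and 14.6 at the 2-cell stage. With the Btg4-/- label it held 0.27 and 0.19, 0.31 and 0.07, 0 and 0.44, and 4.47 and 4.39 FPKM. The labelled Btg4-/- libraries thus stayed below 0.5 FPKM until the zygote and were below every wild-type library of the same stage from MII on. The change was -1.55 ± 0.36 at MII (adjusted p = 0.002628), -2.70 ± 0.36 in the zygote (adjusted p = 4.391e-05) and -1.43 ± 0.36 at the 2-cell stage (adjusted p = 0.004967). The MII call ended when these libraries were fitted alone (adjusted p = 0.07735), and the 2-cell call with a pseudocount of 0.1 FPKM (adjusted p = 0.1377). From zygote to 2-cell Klf4 rose with the Btg4-/- label by 2.18 ± 0.36 (adjusted p = 0.000282). In wild type the step was 0.91 ± 0.36 (adjusted p = 0.04451), a call that ended in 13 of 26 alternatives. The difference between genotypes in this step was 1.27 ± 0.51 (adjusted p = 0.05454), and 9 alternatives put it under 0.05.

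Klf5 (chr14:99697910-99712628), a factor of the first cell lineages, appeared at the 2-cell stage in wild type. Its level there was 21.8 and 30.5 FPKM, from about 101 and 104 fragments, against 0.60 and 0 FPKM with the Btg4-/- label, and no other library of the experiment exceeded 0.28 FPKM. It was listed at 0 in 11 of the 20 libraries of the series. The rise from zygote to 2-cell was 4.66 ± 0.25 in wild type (adjusted p = 9.82e-09) and 0.08 ± 0.25 with the label (adjusted p = 0.8414). The difference between the steps was -4.58 ± 0.35 (adjusted p = 6.438e-07), and the change between genotypes at the 2-cell stage was -4.41 ± 0.25 (adjusted p = 2.535e-08). Both held in all alternatives. Klf5 passed the expression filter only through the group in which it is high.

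Klf17 (chr4:117429264-117438271), an abundant oocyte factor of the same family, followed nearly the same course in both genotypes. Wild-type libraries held 115 and 119 FPKM at GV, 308 and 275 at MII, 424 and 462 in the zygote, and 208 and 239 at the 2-cell stage. Those labelled Btg4-/- held 88.6 and 72.0, 261 and 256, 363 and 369, and 174 and 191 FPKM. At each stage both labelled Btg4-/- libraries lay below both wild-type libraries, by 1.13 to 1.46 times in means. Only the GV change was called, -0.54 ± 0.12 (adjusted p = 0.01741), and that call ended in 7 of 26 alternatives. The changes at MII (-0.17 ± 0.12, adjusted p = 0.2681), zygote (-0.27 ± 0.12, adjusted p = 0.08272) and 2-cell (-0.29 ± 0.12, adjusted p = 0.06441) missed the threshold. With quantile normalization all 3 passed it, at adjusted p of 0.0005045, 0.0002725 and 1.294e-05. Klf17 rose from GV to MII by 1.31 ± 0.12 in wild type (adjusted p = 1.304e-06) and by 1.68 ± 0.12 with the label (adjusted p = 1.62e-07). From zygote to 2-cell it changed by -0.986 ± 0.12 and -1.003 ± 0.12 (adjusted p = 1.563e-05 and 2.215e-05), with a difference between genotypes of -0.02 ± 0.17 (adjusted p = 0.9471).

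Esrrb (chr12:87702067-87862578) peaked at MII and in the zygote in both genotypes. Wild-type libraries held 4.11 and 3.82 FPKM at GV, 12.4 and 10.7 at MII, 11.3 and 11.1 in the zygote, and 3.78 and 7.63 at the 2-cell stage. With the Btg4-/- label the values were 1.60 and 1.73, 10.9 and 7.26, 7.55 and 7.90, and 1.13 and 3.55 FPKM. The groups overlapped at MII, and at the other stages the labelled Btg4-/- libraries were the lower pair. The 2-cell change was -1.04 ± 0.35 (adjusted p = 0.02485). It ended with quantile normalization (adjusted p = 0.08266), the length correction (0.08553) and the groups fitted alone (0.2728). It also ended without replicate 1 of the labelled Btg4-/- 2-cell group (adjusted p = 0.2578) and without wild-type 2-cell replicate 2 (adjusted p = 0.2353). The GV change was -0.90 ± 0.35 (adjusted p = 0.1517). The rise from GV to MII was called in both genotypes, 1.34 ± 0.35 (adjusted p = 0.00567) and 1.89 ± 0.35 (adjusted p = 0.0005883), and no difference between the genotypes in a step was called.

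Dppa5a (chr9:78214861-78216006) spanned 123 times between its highest and lowest group mean, the widest span of the 10 on log2(FPKM + 1). Wild-type libraries held 2187 and 2036 FPKM at GV, 104 and 137 at MII, 14.8 and 19.6 in the zygote, and 60.7 and 90.7 at the 2-cell stage. With the Btg4-/- label it held 1193 and 1172, 1899 and 1981, 1455 and 1491, and 1434 and 1249 FPKM. In wild type the level was lowest in the zygote, whereas the labelled Btg4-/- libraries all stayed at or above 1172 FPKM. The order of the genotypes reversed between GV, where wild type was 1.79 times higher in means, and MII, where it was 16.1 times lower. The changes were -0.83 ± 0.18 at GV (adjusted p = 0.01612), 4.01 ± 0.18 at MII (adjusted p = 3.664e-09) and 4.15 ± 0.18 at the 2-cell stage (adjusted p = 4.139e-09). The GV call ended in 6 of 26 alternatives, among them median-of-ratios scaling (adjusted p = 0.06312) and the omission of any one of the 4 GV libraries (0.06479 to 0.1217). Calls from MII on held in all of them. From GV to MII Dppa5a fell by 4.13 ± 0.18 in wild type (adjusted p = 1.975e-09) and rose by 0.71 ± 0.18 with the label (adjusted p = 0.005976, and 0.1869 with median-of-ratios scaling). The steps differed by 4.84 ± 0.26 (adjusted p = 5.287e-08). From MII to zygote wild type fell by a further 2.74 ± 0.18 (adjusted p = 1.478e-06), against -0.40 ± 0.18 with the label (adjusted p = 0.172), a difference of 2.34 ± 0.26 (adjusted p = 0.0001457). From zygote to 2-cell wild type rose by 2.06 ± 0.18 (adjusted p = 8.438e-07), and the labelled Btg4-/- libraries changed by -0.14 ± 0.18 (adjusted p = 0.5797), a difference of -2.20 ± 0.26 (adjusted p = 1.905e-05). The transcript is short, 619 bases. In 18 of 20 libraries the deposited FPKM lies outside its own interval, at 1.31 to 1.5 times the middle. With that middle in place of FPKM the MII change was 3.93 (adjusted p = 2.788e-09). Near-identical copies of Dppa5a in the genome make its absolute level uncertain.

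Lin28a (chr4:133559245-133574731) fell during maturation and came back at the 2-cell stage, and the genotypes swapped order on the way. Wild-type libraries held 48.0 and 56.2 FPKM at GV, 16.8 and 17.2 at MII, 15.3 and 14.2 in the zygote, and 32.3 and 44.9 at the 2-cell stage. With the Btg4-/- label it held 39.4 and 43.7, 8.60 and 8.80, 10.9 and 8.45, and 74.2 and 82.8 FPKM. The labelled Btg4-/- pair lay below the wild-type pair at the first 3 stages and above it at the 2-cell stage, without overlap. The change was -0.89 ± 0.18 at MII (adjusted p = 0.0009962), which held in all alternatives, and -0.57 ± 0.18 in the zygote (adjusted p = 0.01878), which ended in 5 of 26, among them the fits without labelled Btg4-/- zygote replicate 2 (0.1569) and without wild-type zygote replicate 1 or 2 (0.09138 and 0.05064). At the 2-cell stage it was 1.02 ± 0.18 (adjusted p = 0.0004265), or 2.03 times in means, and ended only when libraries were rescaled to a sum of 1000000 (adjusted p = 0.05621). The rise from zygote to 2-cell was 1.31 ± 0.18 in wild type (adjusted p = 3.936e-05) and 2.91 ± 0.18 with the label (adjusted p = 6.293e-08), a difference of 1.59 ± 0.25 (adjusted p = 0.0002247) that held in all alternatives. Unlike Dppa5a, Lin28a fell from GV to MII in both genotypes. The step was -1.56 ± 0.18 in wild type (adjusted p = 9.29e-06) and -2.13 ± 0.18 with the Btg4-/- label (adjusted p = 6.822e-07).

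Among the members, the pair with the most similar course over the 8 group means was Sox2 and Klf4 (r = 0.978 on log2(FPKM + 1)), and Sox2 and Dppa5a were the least alike (r = -0.838). These values describe 8 means that share libraries, and carry no test. Since Sox2 and Klf4 moved together, their promoter windows are shown, 250 bases before and 50 after the transcription start, from RefSeq (GRCm38.p6). Capitals mark the GC box GGGCGG on either strand, a motif bound by the SP and Krüppel-like families, and CACCC, the other core motif of the Krüppel-like family.
Sox2: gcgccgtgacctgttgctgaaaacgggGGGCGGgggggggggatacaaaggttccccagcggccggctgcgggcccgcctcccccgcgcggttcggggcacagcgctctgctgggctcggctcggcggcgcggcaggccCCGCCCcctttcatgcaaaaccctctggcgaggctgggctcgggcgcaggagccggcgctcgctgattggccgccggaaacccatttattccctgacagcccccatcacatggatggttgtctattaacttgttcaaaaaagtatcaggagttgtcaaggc
Klf4: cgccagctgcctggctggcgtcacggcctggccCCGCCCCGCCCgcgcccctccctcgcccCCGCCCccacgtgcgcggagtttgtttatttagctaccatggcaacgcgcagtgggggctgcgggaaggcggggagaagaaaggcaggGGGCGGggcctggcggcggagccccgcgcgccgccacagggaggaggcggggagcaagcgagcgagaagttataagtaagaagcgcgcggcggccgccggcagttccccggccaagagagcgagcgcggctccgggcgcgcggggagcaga
The Sox2 window is chr3:34649745-34650044 on the plus strand and the Klf4 window chr4:55532426-55532725 on the minus strand. The Sox2 window has 66.3% GC, 27 CpG and 2 GC boxes, and the Klf4 window 74.3% GC, 40 CpG and 4 GC boxes, of which 2 overlap. Neither holds CACCC on either strand. Of 32851 windows of this length, 35.7% hold a GC box and 57.5% CACCC, and the medians are 52.7% GC and 7.0 CpG. Of the 10 members 7 had a promoter entry, and the windows of the other 5 have 4 to 11 CpG. GC boxes are not particular to this pair. They also occur in the windows of Klf17 (2), Lin28a (1) and Pou5f1 (1 in the first window, 0 in the second). The windows of Nanog and Esrrb hold 0.

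By the same measure, the genes nearest to each member among 11713 candidates were L1td1 and Fthl17 for Klf5 (r = 0.999 and 0.9989), both at 0 in all wild-type groups before the 2-cell stage. For Dppa5a they were Dynlt1b, a dynein light chain (r = 0.9802), and Cdpf1 (r = 0.9756). Dynlt1b fell in mean FPKM from 230 at GV to 12.3 in the zygote in wild type, and was 265 in the labelled Btg4-/- zygotes. Ell, an RNA polymerase II elongation factor, was nearest to Klf17 (r = 0.9915), Tor1aip1 to Sall4 (r = 0.9676), Cybrd1 to Lin28a (r = 0.9897), Pkp4 to Sox2 (r = 0.9919), Prdm4 to Klf4 (r = 0.9918), Ap1s1 to Pou5f1 (r = 0.9774), Mcm3 to Esrrb (r = 0.9618) and Atg4a to Nanog (r = 0.969).

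The other genes of the pluripotency network were followed as a list of 30 genes present in the files, of which 23 passed the expression filter. At the 2-cell stage 16 of them were lower and 3 higher with the Btg4-/- label (median change -1.01 beside -0.05 over all genes, of which 26.4% were called lower and 22.6% higher). Of the 23, 5 passed the filter through the wild-type 2-cell group alone. In wild type, from zygote to 2-cell, 16 rose and 5 fell, beside 27.1% and 30.2% of all genes (median 1.11 beside -0.06). Fbxo15, an F-box protein known as a target of Pou5f1 and Sox2, rose from 0.68 ± 0.37 to 123 ± 4.26 FPKM in wild type (mean ± SD of 2 libraries) and was at 12.9 ± 1.65 FPKM with the label. Dppa4, a chromatin-associated partner of Dppa2, was at 64.9 ± 0.08 FPKM in wild-type and 2.22 ± 1.69 in labelled Btg4-/- 2-cell embryos (log2 change -4.46 ± 0.49, adjusted p = 8.942e-06). Etv5, an ETS factor, was at 7.86 ± 2.24 against 0.25 ± 0.35 FPKM. L1td1, an RNA-binding protein, was listed at 0 in wild-type zygotes and reached 6.42 ± 1.76 FPKM at the 2-cell stage. The 3 genes that were higher with the label at the 2-cell stage were Tcl1 (1.92), Dppa3 (1.41) and Gbx2 (1.35, all log2 changes), of which Dppa3 is a maternal factor that guards DNA methylation in the zygote. At the earlier stages 0 were higher and 4 lower at GV (beside 7.9% of all genes called), and 4 were higher and 4 lower both at MII (beside 52.4%) and in the zygote (beside 47.7%). Of the 4 at GV, Stat3 and Nacc1 ended under 3 of 4 other scalings. Rif1, a telomere and replication timing factor, was the list's gene with the largest change at MII (-2.25 ± 0.38, adjusted p = 0.0002389) and in the zygote (-2.92 ± 0.38, adjusted p = 3.55e-05). At GV it was Gbx2 (-1.03 ± 0.15, adjusted p = 0.002264), which was among the 4 higher with the label in the zygote (1.62 ± 0.15, adjusted p = 2.212e-06).

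Of 10 other Krüppel-like genes tested, 8 were lower and 0 higher with the Btg4-/- label at the 2-cell stage (median -1.11), beside 26.4% and 22.6% of all genes. Klf2, Klf3, Klf8 and Klf9 passed the filter through the wild-type 2-cell group alone. Klf9 was at 12.0 ± 4.56 against 0.48 ± 0.32 FPKM, and Klf2, also in the list above, and Klf3 were listed at 0 with the label against 4.32 ± 1.46 and 1.93 ± 0.19 FPKM in wild type. In wild type 5 of the 10 rose from zygote to 2-cell and 1 fell, beside 27.1% and 30.2% of all genes. The 1 was Klf7, which went from 45.2 ± 4.25 to 7.92 ± 3.76 FPKM. At MII 4 were lower and 2 higher (beside 52.4% of all genes called), led by Klf10 (-2.83 ± 0.47, adjusted p = 0.0002149). In the zygote 3 were lower and 1 higher (beside 47.7%), and at GV 2 were lower and 0 higher (beside 7.9%). Of 7 paralogs of the members, 5 were lower and 0 higher at the 2-cell stage (beside 49.0% of all genes called), led by Pou3f1 at 8.38 ± 0.73 against 0.45 ± 0.45 FPKM; 5 were lower at MII (beside 52.4%), 4 in the zygote (beside 47.7%) and 0 at GV (beside 7.9%), with 0 higher at each. Pou3f1 and Esrra passed the filter through the wild-type 2-cell group alone. With quantile normalization or the length correction, 4 paralogs were lower and 1 higher at the 2-cell stage. Of 4 tested genes of the first lineages, Gata4 and Gata2 were lower and Gata3 higher at the 2-cell stage (beside 49.0% of all genes called). Gata2 passed the filter through the wild-type 2-cell group alone. At MII (beside 52.4%) and in the zygote (beside 47.7%) 3 were lower, and at GV (beside 7.9%) 0 were called. Gata4, a factor of primitive endoderm, was at 41.7 ± 7.39 against 5.60 ± 0.13 FPKM at MII.

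Of 8 tested genes of the Lin28 and let-7 pathway, 4 were lower and 0 higher at the 2-cell stage with the Btg4-/- label, while Lin28a itself was higher. The share called, 4 of 8, is about the 49.0% of all genes, and 0 of the 4 calls were left after the length correction. Igf2bp1, among the 4, passed the filter through the wild-type 2-cell group alone. At MII 4 were lower and 1 higher, beside 52.4% of all genes called. Igf2bp3, an mRNA-binding protein and let-7 target, was at 25.0 ± 0.74 in wild type and 4.82 ± 0.23 FPKM with the label. Lin28b, the paralog of Lin28a and in both lists, was at 3.61 ± 1.40 against 0.48 ± 0.03 FPKM, and Trim71, a let-7 target, was the one higher (8.46 ± 1.84 against 3.40 ± 0.79 FPKM). In the zygote (beside 47.7% of all genes called) 3 were lower and 1 higher, again Trim71 (1.51 ± 0.22, adjusted p = 9.71e-05). At GV (beside 7.9%) Igf2bp2 alone was lower, a call that ended under 3 of 4 other scalings.

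At the 2-cell stage, the general markers of genome activation moved with these groups. All 10 markers tested were called higher from zygote to 2-cell in wild type (beside 27.1% of all genes) and lower with the Btg4-/- label (beside 26.4%). However, 5 of the 10 passed the expression filter through the wild-type 2-cell group alone. Their summed FPKM was 276 and 344 in the wild-type and 11.3 to 12.2 in the labelled Btg4-/- 2-cell libraries, beside 4.73 to 4.90 in wild-type zygotes. Kdm5b, a histone demethylase of this list, was at 27.0 ± 3.59 against 0.28 ± 0.03 FPKM; several others (Zscan4 and Tdpoz copies) belong to multicopy families whose single values are uncertain. Their part in the lower levels of Klf5, Klf4 and the listed genes was not tested. Of the 10 oocyte markers, 9 were higher and 0 lower with the label at the 2-cell stage, beside 22.6% and 26.4% of all genes. Lin28a and Dppa5a were also higher at this stage. Within the labelled Btg4-/- libraries, 6 of these markers fell and 1 rose from zygote to 2-cell (beside 28.2% and 18.3%), while Lin28a rose by 2.91.

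**Figure D3:**
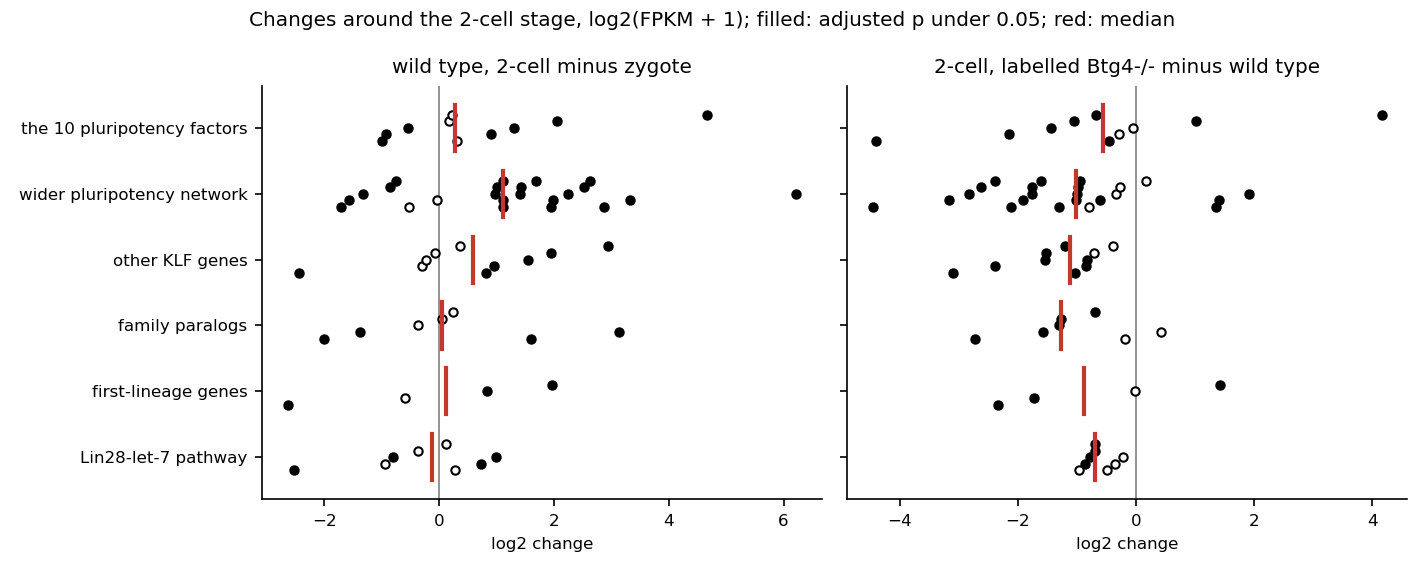
Changes of log2(FPKM + 1) (horizontal axis) for the 10 pluripotency factors and 5 lists of related genes, from zygote to 2-cell in wild type (left) and between labelled Btg4-/- and wild-type 2-cell embryos (right); points are genes tested, filled where the adjusted p was under 0.05, and red bars are medians. In the wider network the medians are 1.11 on the left and -1.01 on the right.

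The Erk experiment has 1 library per group, so it has no replicate check and no test. A change is called past 2-fold where log2(FPKM + 1) differs by at least 1. Shares over all genes cover the 11404 genes with 1 FPKM or more in at least 1 of these 4 libraries. Nanog and Klf5 stayed below that level and could not pass 2-fold on this scale, yet are counted among the 10. Sox2 was listed at 0 in both GV libraries. The shares of members and of all genes are therefore not on the same footing. Between GV oocytes labelled Erk-/- and wild type, 1 of 10 members was past 2-fold, Klf4 at 1.06 against 7.87 FPKM (deposited intervals 0.65 to 1.45 and 6.64 to 9.06), beside 42.2% of 11404 genes (18.7% higher, 23.5% lower). At MII 2 of 10 were, 1 in each direction, beside 38.8% of genes (30.7% higher, 8.08% lower). Dppa5a was at 319 against 143 FPKM, a difference of 1.16 that became 0.62 with median-of-ratios scaling. Sox2 was at 0.63 against 3.24 FPKM (intervals 0.33 to 0.92 and 2.48 to 3.95). No other member was past 2-fold between the labels at either stage. Pou5f1 was at 220 against 283 FPKM at GV and 87.6 against 102 at MII, and Sall4 at 34.1 against 46.8 and 287 against 283. Klf17 was at 142 against 96.2 and 36.2 against 27.6 FPKM, and Lin28a at 16.1 against 13.3 and 103 against 114. With median-of-ratios scaling the MII differences of Pou5f1, Esrrb, Lin28a and Sall4 were -0.76, -0.68, -0.68 and -0.52, against -0.22, -0.20, -0.14 and 0.02 as deposited, and Klf17 turned from 0.38 to -0.15.

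The step from GV to MII separated the 2 experiments. In the wild type of the Erk experiment 3 members were past 2-fold upward (Sox2, Sall4 and Lin28a) and 5 downward (Pou5f1, Klf4, Klf17, Esrrb and Dppa5a), beside 67.3% of genes (20.4% higher, 46.9% lower) and a median of all genes of -0.76. With the Erk-/- label 2 were past 2-fold upward (Sall4 and Lin28a) and 3 downward (Pou5f1, Klf17 and Esrrb), beside 57.3% (23.9% higher, 33.4% lower). Lin28a went from 13.3 to 114 FPKM in this wild type (3.005), where it fell from 48.0 and 56.2 to 16.8 and 17.2 FPKM in the wild type of the Btg4 experiment (-1.56). Pou5f1 (-1.46 against 0.64), Klf17 (-1.77 against 1.31), Esrrb (-1.20 against 1.34) and Klf4 (-3.15 against 1.08) also moved in opposite directions. With median-of-ratios scaling the declines of Pou5f1, Klf17 and Esrrb were -0.62, -0.94 and -0.43, no longer past 2-fold but still opposite in sign. That of Klf4 was -2.80. Sall4 went upward in both, from 46.8 to 283 FPKM in the Erk experiment, and Dppa5a downward in both, from 660 to 143 FPKM. As given above, the GV libraries of the Erk experiment stood apart from those of the Btg4 experiment, and the difference between the experiments was not tested.

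**Figure D4:**
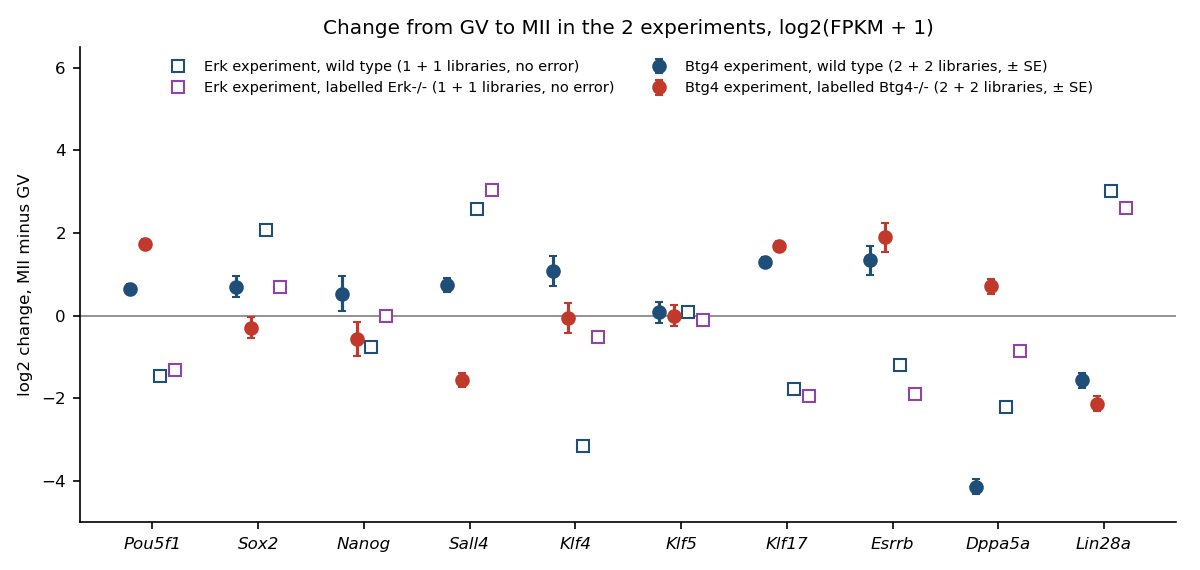
Change from GV to MII (vertical axis, difference of log2(FPKM + 1)) for the 10 genes in both experiments; filled circles are limma estimates ± 1 SE from 2 libraries per stage in the Btg4 experiment and open squares are differences between single libraries in the Erk experiment, with no error. Pou5f1, Klf17 and Esrrb lie above 0 in the circles and below 0 in the squares, and Lin28a the reverse.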

How the data were processed

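RNA-seq was made from 20 samples of mouse oocytes and embryos, 16 in the Btg4 experiment and 4 in the Erk experiment. The deposited files give FPKM per gene with the authors' interval around each estimate, for 23813 loci with mm9 coordinates. CASAVA 1.8, TopHat, Cufflinks and the build mm9 appear in the submitters' processing notes, without versions of TopHat and Cufflinks. FPKM is a relative measure: when some mRNAs gain, others read lower. Per the labels' protocols mRNA was purified, by a means the labels do not give; where mRNA is selected by its poly(A) tail, tail length and amount cannot be told apart. Values of loci with one symbol were added up (260 symbols had several), leaving 23309 symbols. Fragments behind a value were estimated from the interval, taken as 4 SDs wide, which covers counting error only. Where the interval reaches down to 0, this estimate is 4.0 whatever the count.

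Groups came from the sample titles. The check of the targeted gene in the Erk experiment is not reported here. The libraries of the Btg4 experiment were fitted with limma 3.58.1 (R 4.3.3) on log2(FPKM + 1), with a model of 8 group means, 8 residual degrees of freedom and a variance trend, over 12311 genes with a group mean of at least 1 FPKM. A pseudocount of 1 understates changes of low genes. Tests were two-sided, with Benjamini-Hochberg adjustment across the genes tested within each of 13 contrasts. On data simulated for MII with 12311 genes, 100 genes were changed by 1 and 100 by 2 on the log2 scale. All were well expressed in wild-type MII libraries, and every other gene had no change at MII. Of the genes changed by 1, 68% were recovered, and of those changed by 2, 100%, with 7.69% of calls false. In the real MII contrast 52.4% of genes were called, so these rates need not hold there or for scarce members. The members and gene lists were chosen with earlier results of these data known. All 10 members were examined in each contrast, though the text does not name them all for every step. From each other list, names were drawn from the 3 called genes with the largest change in a contrast. The genes given as most like a member were drawn from the 3 with the highest r over the 8 group means. Not all 3 are named in each case. Gbx2, Tcl1, Dppa3 and Kdm5b at the 2-cell stage, and the genes that passed the filter through the wild-type 2-cell group alone, were named after their values were seen. Alternatives were 26 per result: 16 that leave out a library and 10 others (pseudocount, filters, scalings, length correction, groups fitted alone, replicate block, and 2 chosen after seeing the data, the interval's middle and a rescaling to a sum of 1000000). Sequences were matched by symbol.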

Additional observations from a re-analysis of the deposited data

Results flagged for a closer look

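A step between stages that differed between the labelled Btg4-/- and wild-type libraries by limma's test of the difference itself was recorded for 10 results, each on log2(FPKM + 1) and positive where the step was larger with the label. From GV to MII the differences were 1.09 for Pou5f1, -0.99 for Sox2, -2.30 for Sall4 and 4.84 for Dppa5a. The one for Sox2 (adjusted p = 0.03972) ended in 9 of 25 alternatives, among them the omission of either labelled Btg4-/- GV library. From MII to zygote they were -0.88 for Pou5f1, 1.87 for Sall4 and 2.34 for Dppa5a. From zygote to 2-cell they were -4.58 for Klf5, -2.20 for Dppa5a and 1.59 for Lin28a. Groups of 2 libraries are too small for a test of single outlying libraries.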

How the results depend on the processing

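Leaving out 1 library at a time, the number of members called was 1 to 4 (4 with all libraries) for Btg4-/- against wild type at GV, 5 to 6 (6) at MII, 4 to 5 (5) in the zygote and 6 to 9 (8) at the 2-cell stage. For wild type it was 6 to 8 (8) from GV to MII, 2 to 5 (4) from MII to zygote and 4 to 7 (7) from zygote to 2-cell, the last 2 lowest without wild-type zygote replicate 1. For Btg4-/- it was 6 to 6 (6), 1 to 3 (3) and 5 to 7 (6), the second lowest without either Btg4-/- MII library or zygote replicate 2. For the differences between genotypes it was 3 to 5 (4), 3 to 4 (3) and 3 to 4 (3). Among the other settings the GV count was 1 with median-of-ratios scaling, 2 with the length correction and 0 with the groups of the contrast fitted alone. The count from MII to zygote in wild type was 2 with median-of-ratios scaling and 1 with the groups fitted alone. The difference from zygote to 2-cell had 5 calls with the length correction and 5 with the rescaling to a sum of 1000000. The 1 reversal was Pou5f1 at MII, -0.11 with the length correction. The causes were not tested. Of 1072 values of called changes with 1 library left out, 69 lost the call and 0 reversed; of 597 under other settings, 58 lost it.

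Median-of-ratios scaling moved the median of all genes from 0.22 to 0.04 from MII to zygote in wild type, and the share of calls that were higher from 71.9% to 51.2%. Rescaling to 1000000 moved the 2-cell median from -0.05 to -0.54. Replicate numbers were checked as pairs: the correlation of deviations over 28 pairs of groups was -0.01 to 0.13, with 2 of 28 above 0.1. Of these, the labelled Btg4-/- MII and zygote groups were at 0.12. Such low values cannot show whether samples of one number were prepared together, which the labels do not state. A replicate block changed 0 of 67 calls of members and left the counts at 4, 6, 5 and 8 for the 4 stages. Depth limits Nanog, Sox2 and, outside the wild-type 2-cell group, Klf5.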
